A study of Homo sapiens with 12 samples.

Results

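The RNAs described here are 7 long noncoding RNAs, MIR31HG, MALAT1, NEAT1, MEG3, H19, GAS5 and SNHG1, out of 25702 genes in the deposited count table. They were chosen by name, with no threshold, but the list was proposed with expression values of these libraries in view. Fold changes and calls for the members are therefore descriptions, set beside the share of all genes tested that was called, and support nothing further. 6 of the 7 members passed the filter on low values (10 cpm or more in 6 or more of the 12 libraries, cpm being counts scaled to a common library size), which left 9490 genes. H19 did not pass. MIR31HG and SNHG1 are listed without a symbol in the deposited log2 table and were identified by their Entrez identifiers, 554202 and 23642.

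WI-38, a line of normal lung fibroblasts, was grown in 4 conditions. D1 was cultured without TGF-β and D1+ TGF-β with 2 ng/mL TGF-β for 1 day (passages 2 to 3), and D20 and D20+ TGF-β likewise for 20 days (passages 5 to 6). RNA of 3 flasks per condition was sequenced, chosen on RNA quantity and quality among 5, and the D20 flasks of a treatment descended from 1 flask. Replicates are therefore flasks of one culture, and p-values measure the spread between such flasks. The comparisons ask how the cells respond to TGF-β at each day and how the days differ with and without it.

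Library totals were 8674488 to 18286197 counts. The 8 fibroblast markers were all tested, with a summed level of 13415 to 22769 cpm per library. Epithelial markers summed to at most 0.585 cpm and endothelial markers to at most 1.69 cpm. The leukocyte list summed to 37.6 to 61.5 cpm, nearly all of it CD68, which fibroblasts also express, with PTPRC and CD3E at or near 0. Of 8 known TGF-β response genes, 6 rose in D1+ TGF-β vs D1, whereas in D20+ TGF-β vs D20, 2 rose and 1 fell. By the same threshold, given below, 6.89% of all genes were called higher at D1, and 12.8% higher and 14.7% lower at D20. In bulk RNA of this kind, fewer cells of a type and less RNA per cell cannot be told apart.

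Long noncoding RNAs are transcripts that are often spliced and polyadenylated like messenger RNAs but are not known for a protein product. NEAT1 is the scaffold of paraspeckles, nuclear bodies that hold RNA-binding proteins, and MALAT1 is an abundant RNA of the neighbouring nuclear speckles, where splicing factors are stored. MEG3 and H19 are imprinted, the maternal copy being the active one. GAS5 and SNHG1 carry small nucleolar RNAs (snoRNAs), guides of ribosomal RNA modification, in their introns, and their spliced exons are targets of nonsense-mediated decay (NMD). MIR31HG is the host of miR-31.

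The sequences that go with the members showing the clearest differences are their start regions and the mature miRNAs encoded inside them. Of the 7 members, 6 had an entry among the RefSeq start regions (GRCh38.p14, 250 bases before to 50 after the start), and NEAT1 had none. The start regions are shown for the 3 members whose condition means spanned more than 1 on the log2 scale, with searched motifs in capitals. The 6 motifs were searched on both strands. Of 35116 start regions of the same length, the AP-1 motif TGACTCA was found in 4.95%, the cAMP response motif TGACGTCA in 1.85% and the SMAD box CAGAC in 45.3%. The E-box CACGTG was found in 7.26%, the GC box GGGCGG in 45% and the TATA motif TATAAA in 11.5%. No motif overlapped another in the regions shown. The median start region was 58.7% GC with 14 CpG.
MIR31HG, chr9:21559749-21560048, minus strand: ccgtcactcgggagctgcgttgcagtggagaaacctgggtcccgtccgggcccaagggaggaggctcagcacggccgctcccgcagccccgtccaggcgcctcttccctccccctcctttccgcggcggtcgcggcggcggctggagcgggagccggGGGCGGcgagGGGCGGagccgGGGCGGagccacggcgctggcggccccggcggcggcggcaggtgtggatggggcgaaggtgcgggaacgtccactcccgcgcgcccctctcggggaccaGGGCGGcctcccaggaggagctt
MEG3, chr14:100825858-100826157, plus strand: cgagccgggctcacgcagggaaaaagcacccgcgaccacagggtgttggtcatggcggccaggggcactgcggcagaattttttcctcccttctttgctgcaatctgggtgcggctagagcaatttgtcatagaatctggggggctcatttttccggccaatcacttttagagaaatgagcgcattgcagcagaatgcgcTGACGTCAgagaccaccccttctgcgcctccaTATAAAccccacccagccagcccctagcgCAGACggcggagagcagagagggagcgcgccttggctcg
SNHG1, chr11:62855836-62856135, minus strand: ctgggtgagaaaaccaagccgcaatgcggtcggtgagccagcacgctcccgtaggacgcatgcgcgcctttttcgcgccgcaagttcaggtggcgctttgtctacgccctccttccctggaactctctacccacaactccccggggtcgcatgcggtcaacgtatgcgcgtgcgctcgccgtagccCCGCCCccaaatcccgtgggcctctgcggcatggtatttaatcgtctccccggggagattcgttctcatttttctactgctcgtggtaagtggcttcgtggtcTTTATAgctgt
The MIR31HG region was 77.7% GC with 39 CpG and held 4 matches to GGGCGG, 3 of them 72 to 93 bases before the start. The MEG3 region, 59% GC, held TGACGTCA 50 bases and TATAAA 18 bases before the start and CAGAC 11 bases after it. RefSeq lists 3 starts of MEG3, of which the first is shown, and from the other two TATAAA lay 28 and 42 bases and TGACGTCA 60 and 74 bases before the start. The SNHG1 region, 60% GC, held 1 GGGCGG and 1 TATAAA, both on the opposite strand. A match describes letters only, and binding was not measured.

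Among 4 miRNA genes inside members, 3 had RefSeq entries and gave 4 mature miRNAs with 4 different seeds. The miRNAs of the 2 hosts with called TGF-β responses are shown, with the seed (bases 2 to 8) in capitals.
hsa-miR-31-5p, chr9:21512158-21512178, minus strand: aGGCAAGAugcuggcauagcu
hsa-miR-770-5p, chr14:100852409-100852431, plus strand: uCCAGUACcacgugucagggcca
The libraries were not made for small RNAs, so mature miRNAs were not measured. The gene entry of MIR31 had 1 count in all 12 libraries together, that of MIR675 inside H19 had 0, that of MIR770 inside MEG3 had 242 and that of MIR612 inside NEAT1 had 327. Reads of a host and of the small RNA gene inside it cannot be told apart in these counts.

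MIR31HG responded to TGF-β at both days, MEG3 and SNHG1 at D20 only by the threshold, and MALAT1 in no comparison. A gene was called when its adjusted p in edgeR's quasi-likelihood test, over all 9490 genes, was under 0.01. In D1+ TGF-β vs D1, 1 of 6 members was called higher and 0 lower by edgeR, DESeq2 and limma-voom alike (0 lower at an unadjusted p under 0.05), where edgeR called 6.89% of all genes higher and 6.5% lower. In D20+ TGF-β vs D20, 2 members were higher and 1 lower, beside 12.8% and 14.7%. The comparison of D20+ TGF-β with D1+ TGF-β called 2 higher and 2 lower (17.2% and 17.7% of all genes), and D20 vs D1 called 1 higher and 2 lower (18.9% and 17.6%). The TGF-β response at D20 minus that at D1 was called for 0 members upwards and 1 downwards (4.51% and 5.87%), with 3 upwards at an unadjusted p under 0.05 and 0 by DESeq2 or limma-voom. Without D1 replicate 2, 5 members were called in D20+ TGF-β vs D20, 5 in D20 vs D1 and 3 in the difference of responses, which had 2 without D20+ TGF-β replicate 2. With any D1+ TGF-β flask or D20+ TGF-β replicate 1 left out, the comparison of the treated conditions called 2. The shares of all genes above are from the fit of all libraries, so the counts with a flask left out have no share beside them. D20+ TGF-β vs D20 holds no D1 flask, but the spread was estimated over all libraries of a fit. The member medians were 0.04, 0.10, -0.30, 0.15 and 0.27 in the same order, and those of all genes -0.02, 0.01, 0.01, 0.01 and 0.02. These comparisons share conditions, so their counts are not independent of each other.

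**Figure D1:**
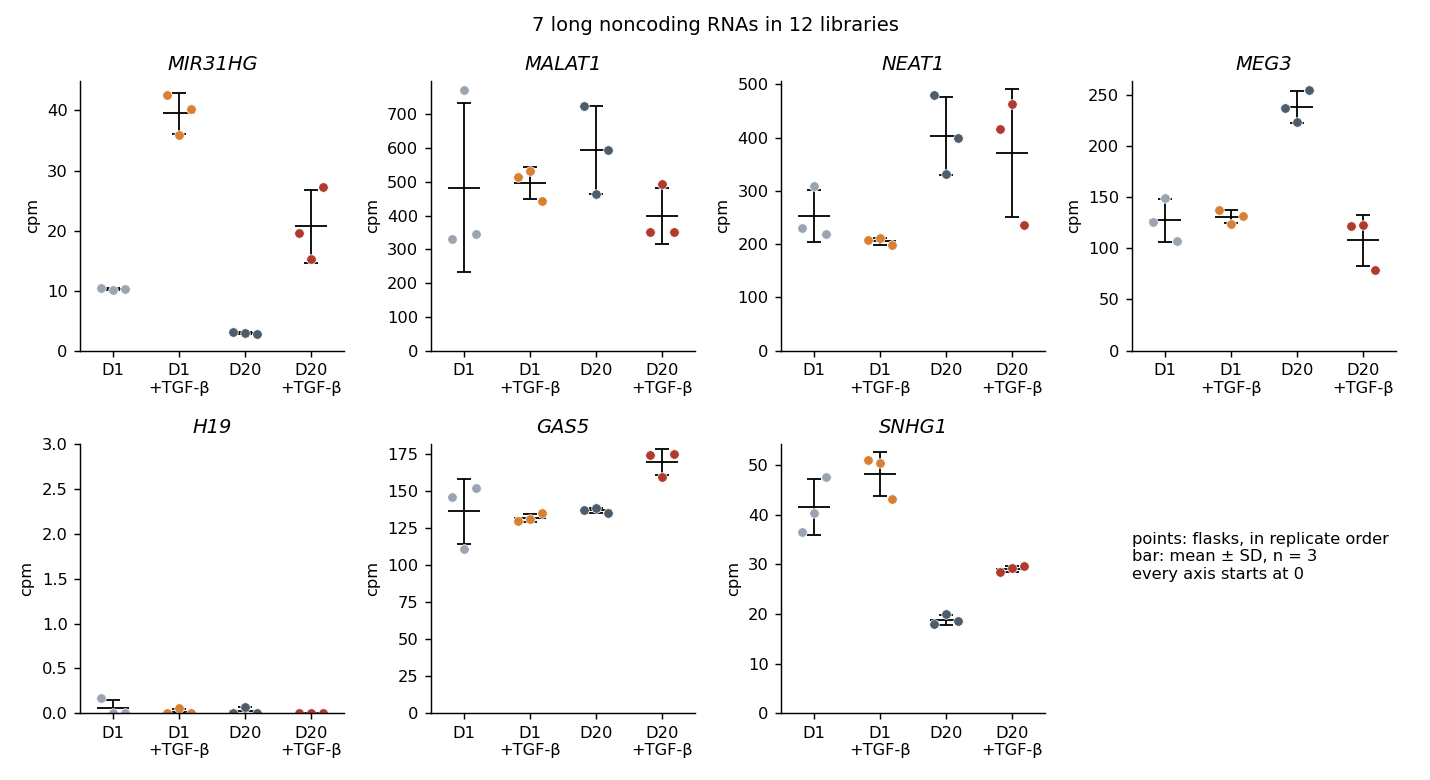
Level of each of the 7 RNAs in cpm (y axis, from 0) by condition (x axis), with 1 point per flask and bars for mean ± SD of 3 flasks. The MIR31HG points form 4 separate levels, MALAT1 points overlap throughout, and H19 lies below 0.2 cpm in each library.

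**Figure D2:**
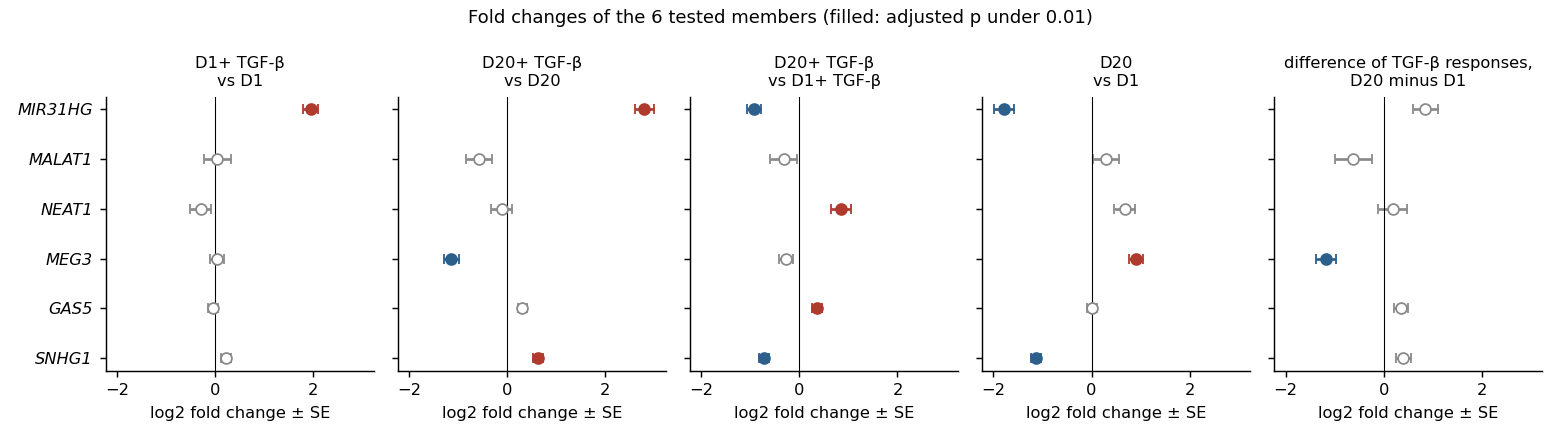
Log2 fold change ± SE (x axis) of the 6 tested RNAs (y axis) in the 4 comparisons and in the difference of the TGF-β responses, filled where the adjusted p was under 0.01. MIR31HG lies to the right in both TGF-β comparisons, at 1.95 and 2.80, and MEG3 to the left at D20, at -1.14.

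MIR31HG lies on chromosome 9 (GRCh37, 21380072 to 21559890, minus strand) across the interferon gene cluster, with MIR31 and IFNE inside it on the same strand. Its level was 10.4, 10.1 and 10.2 cpm in the 3 D1 flasks (10.2 ± 0.166, SD, n = 3) and 42.5, 35.8 and 40.2 cpm in D1+ TGF-β (39.5 ± 3.39). At D20 it was 3.15, 2.98 and 2.83 cpm (2.98 ± 0.159), from 33 to 47 counts, and in D20+ TGF-β 19.5, 15.3 and 27.2 cpm (20.7 ± 6.03). From low to high the order was D20, D1, D20+ TGF-β, then D1+ TGF-β, and no 2 neighbours in it overlapped. TGF-β raised the RNA 3.85-fold at D1 (log2 fold change 1.95 ± 0.16, SE, edgeR adjusted p = 2.12e-06) and 6.96-fold at D20 (2.80 ± 0.19, 1.69e-07). In the absence of TGF-β it was 3.43-fold lower at D20 than at D1 (-1.78 ± 0.20, adjusted p = 1.11e-05), and in its presence 1.90-fold lower (-0.93 ± 0.15, 2.24e-04). The response at D20 exceeded that at D1 by 0.85 ± 0.26, which missed the threshold (adjusted p = 0.0307) except without D20+ TGF-β replicate 2, the lowest of its group (1.03, 0.00497). Among the 79 tested genes that RefSeq types as lncRNA, MIR31HG had the largest fold change in D20+ TGF-β vs D20 and in D20 vs D1, and the second largest in D1+ TGF-β vs D1.

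IFNE, which encodes interferon epsilon, was below the filter, at 0.75 cpm in D1 and 4.33 in D1+ TGF-β, and at 0.256 in D20 and 1.31 with TGF-β, the same order of conditions as its host. Because it shares a strand with MIR31HG, reads of the pair could have been split in counting. The genes beyond the cluster include the cell cycle inhibitors CDKN2A and CDKN2B and the purine salvage enzyme MTAP. CDKN2B, 443.0 kb away, averaged 18.96 ± 0.508, 41.3 ± 7.01, 15.05 ± 1.26 and 80.6 ± 17.7 cpm (here and below in the order D1, D1 with TGF-β, D20, D20 with TGF-β), rising 1.12 ± 0.16 (log2) with TGF-β at D1 and 2.42 ± 0.16 at D20 (edgeR adjusted p = 2.09e-04 and 1.24e-07). Unlike MIR31HG it was 0.97 ± 0.15 higher in D20+ TGF-β than in D1+ TGF-β (adjusted p = 1.39e-04). MTAP, 242.7 kb away, moved in the direction of MIR31HG by less, with 0.38 and 0.65 for TGF-β at D1 and D20, and -0.50 and -0.77 between the days with and without TGF-β, all called. CDKN2A, which lies between them, was called in none of the 4, and its 0.39 in D20+ TGF-β vs D20 and 0.51 between the days with TGF-β were called without D1 replicate 2 (adjusted p = 2.23e-04 and 3.2e-05).
Nearer to MIR31HG, 44.7 kb away, KLHL9, an adaptor of a ubiquitin ligase, went the other way in D20 vs D1 (0.37 ± 0.06, adjusted p = 3.38e-04), while FOCAD, 384.1 kb away on that side, fell (-0.46 ± 0.06, 5.12e-05). Their calls in D20+ TGF-β vs D20, 0.26 for FOCAD and -0.29 for KLHL9, were lost when D20 replicate 3 or either of D20+ TGF-β replicates 1 and 3 was left out, and that of KLHL9 also without D20 replicate 2 (adjusted p 0.0119 to 0.0285).

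The tested genes most like MIR31HG in their condition means, by the root mean square difference of centred log2 cpm over the 4 conditions, were KCNG1 (0.036), a potassium channel subunit, SLC7A1 (0.218), a cationic amino acid transporter, and FZD8 (0.318), a Wnt receptor. SLC7A1 averaged 51.0, 144, 15.9 and 77.7 cpm. KCNG1 averaged 6.22, 22.8, 1.71 and 12.5 cpm, and FZD8 3.07, 17.6, 1.18 and 11.5 cpm. Without TGF-β both averaged under the 10 cpm of the filter, so being high with TGF-β helped them into the genes searched. The likeness is a description over 4 means that share libraries.

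**Figure D3:**
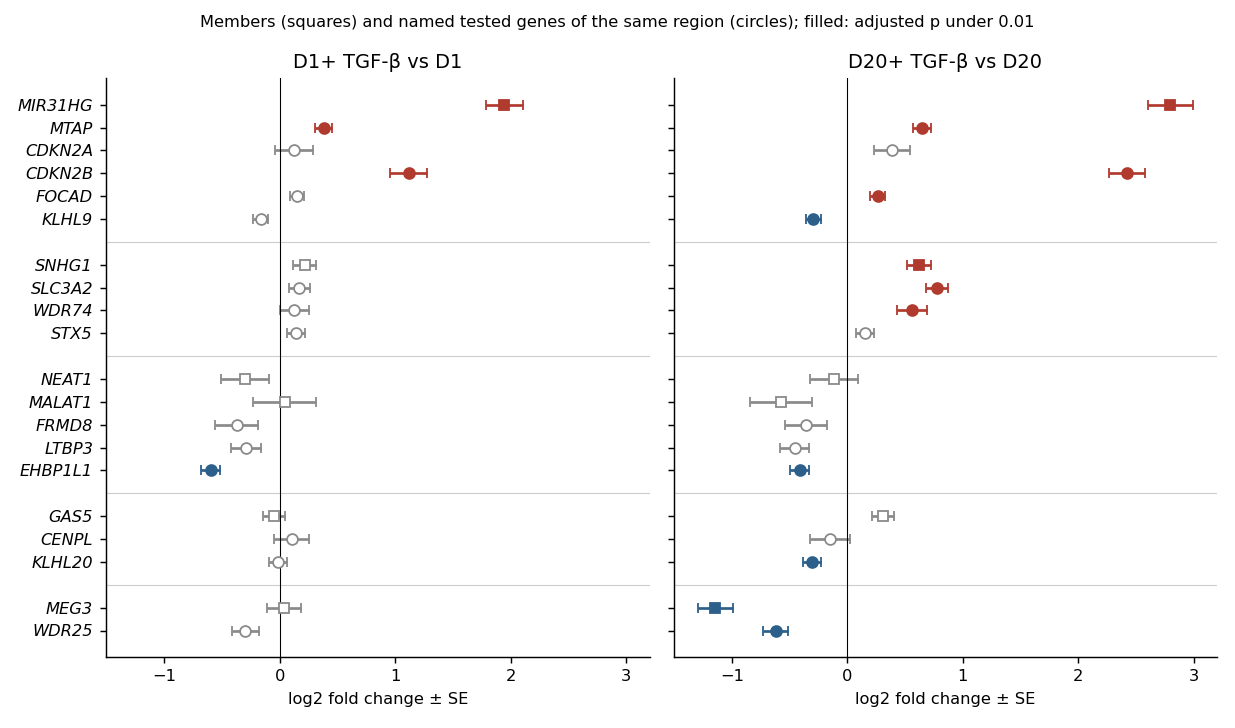
Log2 fold change ± SE (x axis) with TGF-β at D1 (left) and D20 (right) of the tested members (squares) and of the named tested genes of the same region (circles), filled where the adjusted p was under 0.01. CDKN2B moved with MIR31HG at both days, and SLC3A2 and WDR74 were called with SNHG1 at D20.

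MEG3 lies on chromosome 14 (GRCh37, 101245747 to 101327368, plus strand) with MIR770 inside it. Its level was 125, 149 and 107 cpm at D1 (127 ± 21.0) and 137, 124 and 132 cpm in D1+ TGF-β (131 ± 6.56). At D20 it was 237, 223 and 254 cpm (238 ± 15.6), above each flask of the other 3 conditions, and in D20+ TGF-β 121, 123 and 79.0 cpm (108 ± 25.0). MEG3 was thus high only in the long culture without TGF-β, and the other 3 conditions lay close together. It was 1.87-fold higher at D20 than at D1 (0.90 ± 0.15, edgeR adjusted p = 2.08e-04) and 2.21-fold lower in D20+ TGF-β than in D20 (-1.14 ± 0.15, 4.85e-05), the largest fall of the 79 tested lncRNA genes in that comparison. At D1 the response was 0.04 ± 0.15 (adjusted p = 0.881), and -0.02 without composition factors. The responses differed by -1.18 ± 0.21 (adjusted p = 0.00172). D20+ TGF-β lay below D1+ TGF-β in each flask, but the difference of -0.28 ± 0.15 was not called (adjusted p = 0.140).

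The other imprinted genes of the MEG3 domain were below the filter on low values. The Notch ligand homologue DLK1, 41.2 kb upstream, averaged at most 0.496 cpm, and the noncoding MEG8 and MEG9 were at 1.40 to 1.66 and 2.85 to 4.05 cpm, so none was tested. WDR25, 249.1 kb upstream, was the 1 tested gene of the domain list, at 11.5 ± 1.46, 9.32 ± 0.15, 19.6 ± 2.00 and 12.8 ± 0.841 cpm. It too was higher in D20 than in D1 (0.77 ± 0.11, edgeR adjusted p = 6.19e-05) and lower in D20+ TGF-β than in D20 (-0.62 ± 0.11, 5.08e-04). Between the days with TGF-β, WDR25 was called higher (0.45), whereas MEG3 was at -0.28 and not called. That call of WDR25 was lost in 10 of 21 alternative fits. The tested genes most like MEG3 were PPP1R12B (0.0713), a myosin phosphatase subunit, FBLIM1 (0.0742), a filamin-binding adaptor, and SDC2 (0.0760), a cell surface proteoglycan. FBLIM1 averaged 80.2, 92.8, 147 and 69.7 cpm in the 4 conditions.

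H19 (chromosome 11, GRCh37, 2016396 to 2025782, minus strand) had 2 counts in D1 replicate 1, 1 in D1+ TGF-β replicate 2, 1 in D20 replicate 2 and 0 in the other 9 libraries. A count of 0 allows up to 3 counts, which is 0.164 to 0.346 cpm depending on the library, for counting error alone. H19 was thus at or under the detection limit in all 4 conditions and no fold change is given. IGF2, its growth factor partner of the opposite imprint, was at or near 0. In the wider domain, CDKN1C, a cell cycle inhibitor, averaged 3.94, 2.72, 8.85 and 11.6 cpm and was below the filter. PHLDA2, a regulator of placental growth, was called lower in D20 than in D1 (-0.84 ± 0.11, edgeR adjusted p = 3.28e-05) and in D20+ TGF-β than in D1+ TGF-β (-0.60 ± 0.11, 5.71e-04). KCNQ1OT1, an antisense RNA that silences genes of the domain, averaged 12.0 to 17.9 cpm. Of 7 other imprinted noncoding RNAs listed, KCNQ1OT1 and IPW were tested and edgeR called 0. KCNQ1OT1 had an unadjusted p under 0.05 in D20 vs D1, where its 0.56 ± 0.18 was called by DESeq2 and, without D1 replicate 2, by edgeR (0.77, adjusted p = 0.00227).

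SNHG1 lies on chromosome 11 (GRCh37, 62619450 to 62623425, minus strand), with 8 snoRNA genes in the count table inside it. Its level was 36.6, 40.3 and 47.7 cpm at D1 (41.5 ± 5.66) and 51.0, 50.4 and 43.1 cpm in D1+ TGF-β (48.2 ± 4.40), which overlap. At D20 it was 18.01, 19.99 and 18.6 cpm (18.9 ± 1.01), and in D20+ TGF-β 28.5, 29.3 and 29.6 cpm (29.1 ± 0.575). Both D20 conditions lay below both D1 conditions, and within D20 the treated flasks were the higher. SNHG1 was lower at D20 than at D1 without TGF-β (-1.13 ± 0.10, edgeR adjusted p = 1.39e-06) and with it (-0.73 ± 0.10, 6.81e-05). TGF-β raised it at D20 (0.62 ± 0.11, adjusted p = 3.83e-04), and at D1 the value was 0.22 ± 0.10 (0.125). The difference of these responses, 0.40 ± 0.14, was not called (adjusted p = 0.0609).

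The start of SLC3A2, which encodes the heavy chain of amino acid transporters, lies 51 bases from SNHG1 on the opposite strand. It averaged 97.1 ± 5.53, 109 ± 2.71, 80.8 ± 4.37 and 139 ± 20.7 cpm and rose with TGF-β at D20 like SNHG1 (0.78 ± 0.09, edgeR adjusted p = 2.44e-05). In the long culture without TGF-β it moved less than SNHG1, by -0.26 ± 0.09 (adjusted p = 0.0303). Between the days with TGF-β, SLC3A2 was higher (0.34 ± 0.09, adjusted p = 0.00801) where SNHG1 was lower, a call lost in 13 of 21 alternative fits. Among these were the fits without any 1 of the D1+ TGF-β or D20 flasks or without D20+ TGF-β replicate 1 or 3 (0.01 to 0.0384). WDR74, a ribosome assembly factor 10.2 kb away, was lower at D20 than at D1 (-0.62 ± 0.13, adjusted p = 0.00144). Its rise with TGF-β at D20 (0.56 ± 0.13, adjusted p = 0.0039) was lost without any of the 3 D20 flasks or without D20+ TGF-β replicate 1 (0.0104 to 0.02). STX5, the next gene, was not called. The genes most like SNHG1 were MZT1 (0.0241), a component of spindle microtubule nucleation, IPO4 (0.0340), a nuclear import receptor, and DKC1 (0.0414), the pseudouridine synthase of snoRNA particles. DKC1 averaged 64.9, 77.3, 31.9 and 48.5 cpm.

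Proliferation genes moved in 3 of the 4 comparisons in the direction of SNHG1 and MIR31HG. All 15 on the list were lower in D20 than in D1 and likewise between the days with TGF-β, and 11 were higher in D20+ TGF-β than in D20. The shares of all genes called in those directions were 17.6%, 17.7% and 12.8%. In D1+ TGF-β vs D1, where MIR31HG was called higher, 1 of the 15 was called, lower, and the list's median log2 fold change was -0.10. That 1 call, beside 6.5% of all genes called lower, was lost without D1+ TGF-β replicate 2. Their summed level was 1209 to 1740 cpm at D1, 1329 to 1389 in D1+ TGF-β, 264 to 318 at D20 and 479 to 749 in D20+ TGF-β. Their part in the members' values was not tested.

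GAS5 lies on chromosome 1 (GRCh37, 173827697 to 173838020, minus strand), overlapping ZBTB37 on the opposite strand, with 10 snoRNA genes in the count table. Its level was 146, 111 and 152 cpm at D1 (137 ± 22.1), 130, 131 and 135 in D1+ TGF-β (132 ± 2.92) and 137, 139 and 135 at D20 (137 ± 1.68). In D20+ TGF-β it was 175, 159 and 175 cpm (170 ± 9.002), above every flask of the other conditions. The D1 flasks overlapped with those of D1+ TGF-β and of D20, and each D20 flask lay just above each D1+ TGF-β flask. GAS5 was higher in D20+ TGF-β than in D1+ TGF-β (0.36 ± 0.10, edgeR adjusted p = 0.00703). That call failed when D1+ TGF-β replicate 1, 2 or 3 was left out (0.0311, 0.0341 and 0.0189), or D20 replicate 2 or 3 (0.0115 and 0.0113), or replicate 1 or 3 of D20+ TGF-β (0.0241 and 0.0187). It also missed the threshold with filterByExpr (0.0165), without a gene filter (0.0118) and with limma on the deposited log2 values (0.01003). Against D20 the rise of 0.31 ± 0.10 was not called (adjusted p = 0.0203), but it was called by DESeq2 (0.0069), with only the 6 libraries of the comparison (0.00176) and without composition factors (0.00945). Without D1 replicate 2, the lowest D1 flask, it was called as well (0.32, adjusted p = 3.05e-04), as was the difference of responses (0.49 instead of 0.36 ± 0.14, adjusted p = 7.43e-04 instead of 0.0816). D20 vs D1 gave 0.01 ± 0.10, whose sign changed in 11 of 21 alternative fits, and D1+ TGF-β vs D1 gave -0.05 ± 0.10.

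Whether counting used strand is not given in the sources used here, so reads of overlapping genes on opposite strands may not have been told apart. CENPL, a centromere protein 33.7 kb from GAS5, was lower at D20 than at D1 (-0.93 ± 0.16, edgeR adjusted p = 3.58e-04), where GAS5 was not called. Between the days with TGF-β, where GAS5 was called higher, CENPL was called lower (-1.18), also in all 21 alternative fits. KLHL20, 71.9 kb from GAS5, was called higher at D20 than at D1 (0.43), also in all 21. With TGF-β at D20, KLHL20 was called lower (-0.31), a call lost in 11 of 21.

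Other snoRNA hosts were set beside GAS5 and SNHG1. Of 21 listed, 12 were tested, and in D20+ TGF-β vs D20, 4 were called, all higher, with a median log2 fold change of 0.29. The shares of all genes were 12.8% higher and 14.7% lower there, and 6.89% and 6.5% with TGF-β at D1. SNHG3 came closest to SNHG1, at 32.7 ± 3.79, 32.9 ± 1.48, 15.8 ± 1.83 and 28.2 ± 1.22 cpm, falling by 1.05 ± 0.11 on the log2 scale from D1 to D20 (edgeR adjusted p = 3.09e-06) and rising by 0.84 ± 0.11 with TGF-β at D20 (3.74e-05). SNHG5 (0.55 ± 0.09) and SNHG16 (0.39 ± 0.07) were also higher in D20+ TGF-β than in D20. The call of SNHG8 (0.62 ± 0.15) was lost when replicate 1 or 3 of either condition was left out (adjusted p 0.0126 to 0.0213). With TGF-β at D1, 0 of 12 were called by edgeR, DESeq2 or limma-voom, 1 was higher and 1 lower at an unadjusted p under 0.05, and the median was 0.04, or -0.02 without composition factors. Between the days with TGF-β, 5 were called, all higher, among them SNHG19 (0.94 ± 0.12) and SNHG18 (0.61 ± 0.12), while SNHG1 fell. DANCR (0.65 ± 0.15) was also higher, but leaving out D1+ TGF-β replicate 1 or 2 or D20+ TGF-β replicate 1 ended that call (adjusted p 0.0109 to 0.0245), with 3 hosts then called. Edged against all genes, 17.2% of which were called higher between the days with TGF-β, the hosts had 41.7%. In D20 vs D1, 1 host was higher and 2 lower (8.33% and 16.7%), or 1 in all without D20 replicate 1. These lie below the 18.9% and 17.6% of all genes and are not read as a result about the hosts. Counts with a flask left out have no share beside them. The snoRNA genes themselves had 15 to 567 counts inside GAS5 and 29 to 184 inside SNHG1 over all libraries.

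**Figure D4:**
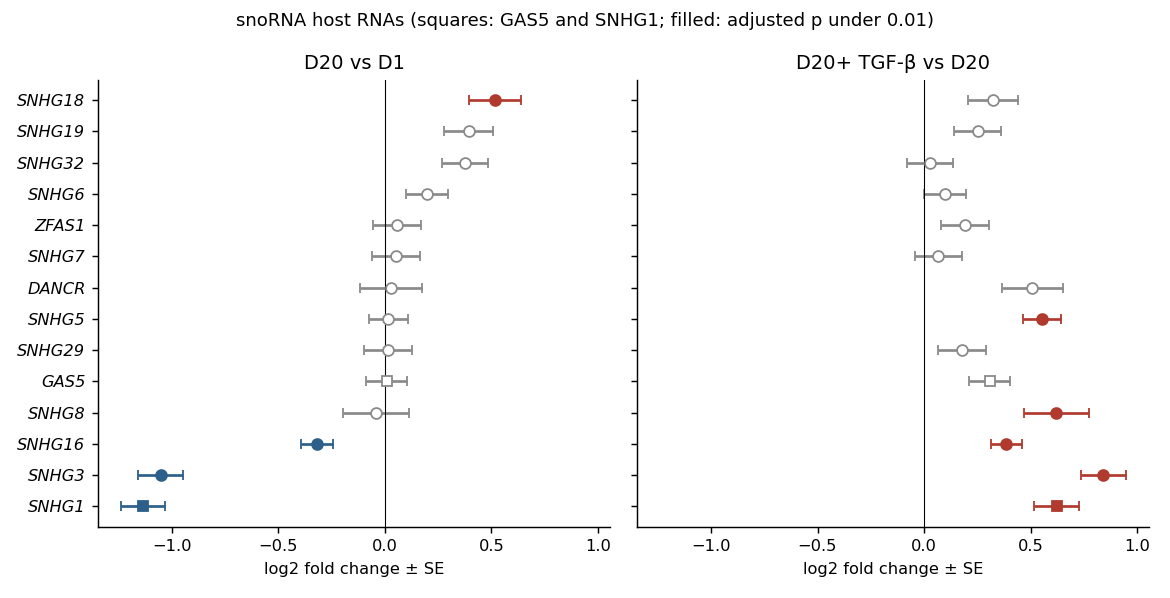
Log2 fold change ± SE (x axis) of GAS5 and SNHG1 (squares) and the 12 other tested snoRNA hosts (circles) in D20 vs D1 (left) and D20+ TGF-β vs D20 (right), filled where the adjusted p was under 0.01. SNHG1 and SNHG3 lie far to the left between the days, at -1.13 and -1.05, and all 14 hosts lie to the right of 0 with TGF-β at D20.

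The machinery that acts on these hosts was looked at with lists of NMD factors and of regulators of terminal oligopyrimidine (TOP) RNAs, the class of growth-dependent transcripts to which GAS5 belongs. Of 14 NMD factors tested, SMG9, a regulator of the NMD kinase, was higher with TGF-β at D1 (0.44), a call lost without D1+ TGF-β replicate 1 or 3 (adjusted p = 0.0166 and 0.0156). With TGF-β at D20, 0 were called by edgeR, DESeq2 or limma-voom, with 3 higher and 3 lower at an unadjusted p under 0.05; 2 were called without D1 replicate 1, and 1 without D1 replicate 2 or 3 or D20+ TGF-β replicate 2. In D20 vs D1, 1 NMD factor was called higher and 2 lower, beside 18.9% and 17.6% of all genes. RBM8A, a subunit of the exon junction complex, was lower at D20 than at D1 (-0.72 ± 0.10, adjusted p = 4.25e-05). SMG6 was the 1 called higher, a call lost in 8 of 21 alternative fits. Of 11 TOP regulators, 10 were tested. PDCD4, an inhibitor of translation initiation, averaged 63.9, 68.0, 148 and 90.0 cpm and like MEG3 was highest at D20. It was higher there than at D1 (1.21 ± 0.06, adjusted p = 2.51e-08) and lower with TGF-β at D20 (-0.72 ± 0.06, 9.07e-07). EIF4EBP1, which holds back cap-dependent translation, rose with TGF-β at D20 (1.60 ± 0.17, adjusted p = 1.05e-05) and was lower at D20 than at D1 (-1.02 ± 0.18, 3.39e-04).

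NEAT1 and MALAT1 are neighbours on the plus strand of chromosome 11 (GRCh37, 65190245 to 65213011 and 65265111 to 65275544). NEAT1 was at 230, 309 and 220 cpm at D1 (253 ± 48.7) and 207, 211 and 198 cpm in D1+ TGF-β (206 ± 6.42). At D20 it was at 479, 332 and 399 cpm (403 ± 73.6), and in D20+ TGF-β at 416, 463 and 236 cpm (372 ± 120). Each D20 flask lay above each D1 flask of the same treatment, while the treated and untreated D20 flasks overlapped. With TGF-β, NEAT1 was 0.85 ± 0.21 higher at D20 than at D1 (edgeR adjusted p = 0.00406). It missed the threshold when D1+ TGF-β replicate 1, 2 or 3 was left out (0.0164, 0.0169 and 0.0186), or replicate 1 or 2 of D20+ TGF-β (0.0177 and 0.0242). Without TGF-β the rise of 0.67 ± 0.21 was not called (adjusted p = 0.0151), but it was called without D1 replicate 2 (0.84, 0.00464) or without D20+ TGF-β replicate 3 (0.66, 0.00119). It was also called by DESeq2 (0.00262), without a gene filter (0.00543) and with only the 6 libraries of the comparison (0.00933). The TGF-β responses were -0.30 ± 0.21 at D1, with each treated flask below each untreated one, and -0.12 ± 0.21 at D20 (adjusted p = 0.317 and 0.679).

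MALAT1 was at 332, 771 and 344 cpm at D1 (482 ± 250.2), 515, 533 and 444 in D1+ TGF-β (497 ± 47.3), 723, 464 and 595 at D20 (594 ± 129) and 352, 494 and 352 in D20+ TGF-β (399 ± 82.2). The 4 conditions overlapped, and no comparison was called. The highest of the 12 flasks was D1 replicate 2, at 771 cpm. It was also the highest D1 flask for NEAT1 and MEG3 and the lowest for GAS5. Without it, MALAT1 was called higher at D20 than at D1 (0.81, edgeR adjusted p = 0.00142, instead of 0.30 ± 0.27, 0.376) and lower with TGF-β at D20 (-0.56, 0.00796, instead of -0.57 ± 0.27, 0.108). The difference of responses then became -1.13 (adjusted p = 0.0025) instead of -0.62 ± 0.38 (0.274). The D1+ TGF-β vs D1 value, 0.04 ± 0.27, became 0.57 without that flask and -0.16 without D1 replicate 1. TALAM1, annotated on the opposite strand of MALAT1, shares its position, so the caution on strand holds here too. RNAs without a poly(A) tail summed to 95.0 to 193 cpm over the libraries, and 0 of the 2 tested were called by edgeR, DESeq2 or limma-voom (0 at an unadjusted p under 0.05). Whether poly(A) selection was used is not stated.

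The protein-coding neighbours of this pair did not move together. FRMD8, 9.2 kb from NEAT1, was called in no comparison, but was called lower with TGF-β at D20 without D1 replicate 2 (-0.34, edgeR adjusted p = 0.00437). EHBP1L1, a membrane trafficking adaptor 68.0 kb from MALAT1, fell with TGF-β at D1 (-0.60 ± 0.08, adjusted p = 1.9e-04). It was also called lower with TGF-β at D20 (-0.45 to -0.35 over 21 alternative fits, the call lost in 1). Between the days with TGF-β it was called higher (0.32 to 0.42, the call lost in 2). LTBP3, which binds latent TGF-β and lies 30.5 kb from MALAT1, averaged 76.6 ± 15.9, 62.7 ± 5.14, 111 ± 4.70 and 80.9 ± 9.59 cpm. Its rise from D1 to D20 (0.54 ± 0.13, adjusted p = 0.00289) was lost without D1 replicate 3 or D20 replicates 2 or 3 (0.0125 to 0.0152).

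The proteins of paraspeckles and nuclear speckles were measured as messenger RNAs. Of 14 paraspeckle proteins, all tested, 6 were called in D20 vs D1, all lower. Of all genes, 17.6% were called lower there, and 17.7% between the days with TGF-β. NEAT1 lay higher in each D20 flask than in each D1 flask, a rise that edgeR did not call (adjusted p = 0.0151). Counts were per gene, so the transcripts of NEAT1 were not told apart. Among the paraspeckle proteins, HNRNPH3, which binds RNA, fell the most in D20 vs D1 (-0.81 ± 0.08, edgeR adjusted p = 2.54e-06). With TGF-β at D20, 2 rose, HNRNPH3 (0.53 ± 0.08) and DAZAP1 (0.40 ± 0.08), beside 12.8% of all genes called higher. Between the days with TGF-β, 3 were lower, TARDBP the most (-0.41 ± 0.07, adjusted p = 4.54e-04), or 1 when D1+ TGF-β replicate 1 or D20+ TGF-β replicate 1 or 2 was left out. Of 9 nuclear speckle proteins, 5 were called in D20 vs D1, all lower, among them the splicing factors SRSF3 (-0.72 ± 0.08, adjusted p = 1.03e-05) and U2AF2 (-0.60 ± 0.07, 1.01e-05). Between the days with TGF-β, 6 were called, all lower, with SRSF1 at -0.49 ± 0.08, or 3 without D20+ TGF-β replicate 1 or 2. With TGF-β at D1, 0 proteins of either list were called by edgeR, DESeq2 or limma-voom, while 3 paraspeckle proteins were lower and 1 speckle protein higher at an unadjusted p under 0.05.

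The members were last set beside other long noncoding RNAs. Of 16 further miRNA hosts, 3 were tested. MIR100HG, host of miR-100, was called higher with TGF-β at D1 like MIR31HG (0.55 ± 0.10, edgeR adjusted p = 0.001) but not at D20 (0.04 ± 0.10, 0.789). The difference of its responses was not called. MIR4435-2HG was at 51.4 ± 0.680, 49.8 ± 3.75, 72.9 ± 4.32 and 40.5 ± 2.54 cpm, like MEG3 highest at D20 and lowest in D20+ TGF-β, and fell by 0.85 ± 0.08 on the log2 scale with TGF-β at D20 (adjusted p = 1.8e-06). It and CYTOR are near-identical copies that the deposited log2 table lists under 1 symbol, so their counts may be shared. NORAD, an RNA that sequesters Pumilio proteins, was also highest at D20, at 535, 561, 755 and 567 cpm, with 0.50 ± 0.08 in D20 vs D1 and -0.41 ± 0.08 in D20+ TGF-β vs D20 (adjusted p = 1.1e-04 and 6.68e-04).

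Of 33 further long noncoding RNAs listed, 10 were tested, and 5 were called in D20 vs D1, all higher, or 3 without D20 replicate 2 or 3. In the fit of all libraries, 18.9% of all genes were called higher there and 17.6% lower, and the count of 3 has no share beside it. FENDRR, a lung mesenchyme RNA transcribed next to FOXF1, was at 219 ± 51.9, 74.8 ± 8.41, 390.4 ± 16.5 and 192 ± 39.2 cpm, falling with TGF-β at D1 (-1.56 ± 0.17, edgeR adjusted p = 2.34e-05) and D20 (-1.02 ± 0.16, 2.39e-04). MIAT rose in all 4 comparisons, from 6.17 ± 1.29 cpm at D1 to 41.9 ± 8.77 in D20+ TGF-β (1.24 and 1.36 with TGF-β at D1 and D20, 1.51 and 1.39 between the days). CYTOR was lower in D20+ TGF-β than in D20 (-0.52 ± 0.07, adjusted p = 1.03e-04), and LINC00963 was higher at D20 than at D1 with TGF-β (0.68 ± 0.12, 3.27e-04).

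Over all 79 tested genes typed as lncRNA, the 73 that are not members were called higher in 9.59% and lower in 9.59% of cases with TGF-β at D1, and in 10.96% and 15.1% at D20. Between the days 27.4% were higher and 6.85% lower without TGF-β, and 31.5% and 9.59% with it, beside the shares of all genes given above. MIR31HG and SNHG1, both lower at D20, were thus among the smaller number. NEAT1 lay on the side of the larger one with and without TGF-β, and MEG3 without TGF-β, its value with TGF-β being -0.28. The largest rise with TGF-β at D1 was that of STARD4-AS1, from 11.1 ± 1.51 to 45.5 ± 4.02 cpm (2.05 ± 0.13, edgeR adjusted p = 2.01e-07), next to MIR31HG at 1.95. At D20 the response of STARD4-AS1 was 0.44 ± 0.13 (adjusted p = 0.0161), against 2.80 for MIR31HG. RGMB-AS1 had the largest fall between the days with TGF-β (-2.22 ± 0.23, adjusted p = 8.88e-06), and LINC02035 the largest rise from D1 to D20 (1.62 ± 0.15, 1.42e-06). RGMB-AS1 and STARD4-AS1 are antisense genes, so the caution on strand applies to both.

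**Figure D5:**
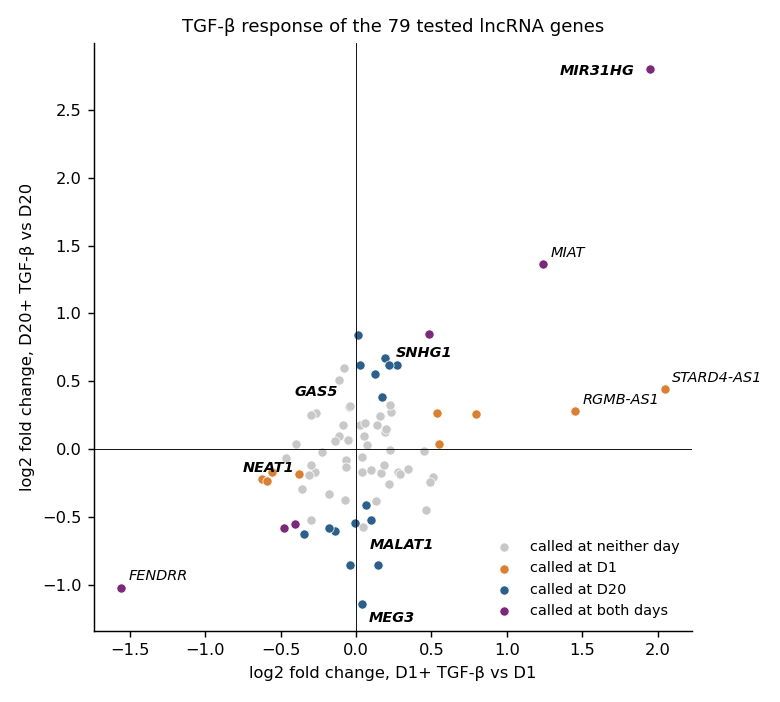
TGF-β response of the 79 tested lncRNA genes as log2 fold change at D1 (x axis) and at D20 (y axis), 1 point per gene, coloured by the day at which the gene was called. MIR31HG lies at the upper right, MEG3 at the bottom near 0 on the x axis, and STARD4-AS1 at the far right.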

How the data were processed

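RNA of 12 WI-38 flasks was sequenced with a directional kit, each library on 4 lanes. The authors trimmed reads with Trimmomatic, mapped them to hg19 with Rsubread and deposited raw counts per gene and lane. The authors also deposited log2 cpm per gene and lane, as written by limma's voom, for 9412 genes. Tool versions, the read counter, its annotation and its use of strand are not given in the sources used here. All columns were matched to samples by name.

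Lanes were summed per library, giving 8674488 to 18286197 counts. Errors are SDs or standard errors between flasks and include counting error. Tests used edgeR 4.0.16 in R 4.3.3 (TMM factors, quasi-likelihood F-test, 1 mean per condition over all libraries) on genes that reached 10 cpm in 6 or more libraries, with Benjamini-Hochberg adjustment over the 9490 genes and a threshold of 0.01. Standard errors were taken as the absolute log2 fold change divided by the square root of F. Log2 cpm used a prior count of 2, and cpm use TMM library sizes. Levels were not compared between genes, since no lengths were applied. The code was tested on simulated data. Some items are not reported here.

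The members, lists, comparisons and alternatives were chosen with earlier results of these data known. Named genes are the members, their neighbours and, per list and comparison, called genes with the largest changes, at most 4 and not all given here, plus the most changed lncRNA in each direction. Coordinates and overlaps are from the GENCODE annotation of GRCh37, sequences and names from RefSeq tables (GRCh38.p14, no coordinates mixed). 9433 of the genes tested had a RefSeq name. The alternatives were DESeq2 1.42.0, limma-voom (limma 3.58.1), RLE factors, library totals without composition factors, filterByExpr, all genes without a filter, limma on the deposited log2 values, only the 6 libraries of a comparison, replicate numbers as a block, and leaving out each library.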

Additional observations from a re-analysis of the deposited data

Results flagged for a closer look

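For 1 member and 9 other genes named above, the TGF-β response at D20 differed from that at D1 by edgeR's test of the difference of responses (adjusted p under 0.01). All differences are log2 fold changes, D20 minus D1.

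Of the members, MEG3 differed by -1.18, with all flasks of D20+ TGF-β below those of D20 while D1 and D1+ TGF-β overlapped. Among genes near a member, CDKN2B differed by 1.30. SLC3A2, next to SNHG1, differed by 0.61, a call lost without D1 replicate 1, D20 replicates 1 or 3, or any D1+ TGF-β flask (adjusted p 0.0126 to 0.0177). Among other noncoding RNAs, SNHG3 differed by 0.83, MIR4435-2HG by -0.81, CYTOR by -0.62 and STARD4-AS1 by -1.60. NORAD differed by -0.48, a call lost without 9 of the 12 libraries, left out one at a time (adjusted p 0.0106 to 0.023). Among proteins, PDCD4 differed by -0.81 and the paraspeckle protein HNRNPH3 by 0.51, the latter call being lost without D1 replicate 3, D1+ TGF-β replicates 1 or 2, D20 replicates 1 or 2, or D20+ TGF-β replicates 1 or 2 (adjusted p 0.0107 to 0.021).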

How the results depend on the processing

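With 3 flasks of one culture per condition, the 12 calls of members were repeated under 251 alternatives. In 236 the direction and the call held, including all of those of MIR31HG, MEG3 and SNHG1, and 15 calls were lost, 5 of NEAT1 and 10 of GAS5. The 18 uncalled values gave 373 alternatives, of which 15 became called and 20 changed sign. Leaving out 1 library at a time, the number of members called was 3 to 5 in D20+ TGF-β vs D20, 2 to 4 in the comparison of the treated conditions, 3 to 5 in D20 vs D1, 1 to 3 for the difference of responses and 1 throughout in D1+ TGF-β vs D1. The counts of 5, 5 and 3 came without D1 replicate 2, and the count of 2 without D1+ TGF-β replicates 1, 2 or 3 or D20+ TGF-β replicate 1. Without D20+ TGF-β replicate 2 the difference of responses called 2. Shares of all genes called in these fits are not given, so the counts are not read as a result about the members.

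Uncalled values near 0 changed sign. Without composition factors, which moved the median of all genes by 0.107 for the difference of responses and by less elsewhere, D1+ TGF-β vs D1 became -0.022 for MALAT1 and -0.0249 for MEG3, and D20 vs D1 became -0.0647 for GAS5 and -0.0163 for STX5. D20 vs D1 of GAS5 was also -0.0686 without a gene filter, -0.0326 with filterByExpr and -0.0213 with only the 6 libraries, and that of STX5 -0.0186 without a filter. Leaving out 1 library, D1+ TGF-β vs D1 ranged from -0.16 to 0.57 for MALAT1, -0.065 to 0.18 for MEG3, -0.16 to 0.0434 for GAS5, -0.10 to 0.29 for CDKN2A, -0.0748 to 0.0345 for KLHL20, -0.22 to 0.0078 for PHLDA2 and -0.0027 to 0.21 for WDR74. D20+ TGF-β vs D20 of NEAT1 ranged from -0.29 to 0.14, and D20 vs D1 from -0.12 to 0.0918 for GAS5, -0.35 to 0.15 for FRMD8 and -0.0027 to 0.12 for STX5. The cause was not tested.

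Same-numbered flasks correlated at -0.223 to 0.325 in their deviations, and in 0 of 6 pairs of conditions were all correlations over 0.1, so the numbers do not pair the flasks. With the replicate block, 1, 3, 4, 4 and 1 members were called in the 5 comparisons, NEAT1 joining in D20 vs D1 (0.69, edgeR adjusted p = 0.00979).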
